A study of Caenorhabditis elegans with 11 samples.

Results

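Of the 10 genes examined here, cnk-1, the gene of a scaffold protein that acts with Ras and Raf, differed between the strains in every pair of arrays, at 57.9 to 89.2 in BW1940 animals and 3.24 to 14.97 in LT186 animals, in intensity units on arrays scaled to 100. The other 9 genes, which encode the ligand, receptor, Ras protein, kinases, a second scaffold and nuclear effectors of the LIN-3 to MPK-1 pathway, overlapped between the strains on every probe set. In this pathway the EGF-like ligand LIN-3 binds the receptor tyrosine kinase LET-23, which switches on the Ras protein LET-60; LET-60 activates the Raf kinase LIN-45, which phosphorylates the MAPK kinase MEK-2, which in turn phosphorylates the ERK-type MAP kinase MPK-1. MPK-1 acts on nuclear proteins such as the ETS factor LIN-1 and the forkhead factor LIN-31, while KSR-1 and CNK-1 bring the kinases together. The pathway is best known in C. elegans larvae for induction of the vulva, and it also acts in the germ line.

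The members were the genes of this pathway and its scaffold, listed by name and found by the gene symbol of the array's annotation. They were 10 of 17118 genes named on the array and had 17 probe sets of a single symbol among 22548; 7 genes had 2 probe sets and 3 genes, lin-3, let-23 and cnk-1, had 1. All 17 passed the filter on low values (at least 10 on at least 2 of 11 arrays), as did 18801 probe sets in all. They were chosen by pathway membership with the strain difference of cnk-1 already measured on these arrays, so the values of the members in this contrast are given as a description: no p is given for them, and their counts of calls only restate the values.

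Affymetrix whole-genome arrays measured total RNA of whole L4 larvae of strains that differ in DBL-1 signaling, a BMP-like TGFβ pathway that sets body size. BW1940 (5 arrays, labelled dbl-1) carries the integrated transgene ctIs40, made from a cosmid with wild-type dbl-1 and a sur-5::gfp plasmid as marker, and so has extra copies of the ligand gene. LT186 (6 arrays, labelled sma-6) carries sma-6(wk7), a stop codon in the type I receptor of DBL-1. Both were grown on E. coli OP50 after hatching without food, each array is a biological replicate of a pooled population staged by eye, and no wild-type array enters the comparison, so a difference between the strains cannot be divided between the transgene and the mutation.

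The 11 arrays had medians of 37.0 to 39.96 in BW1940 and 34.2 to 38.8 in LT186. The arrays differed widely in sperm transcripts: the mean log2 value of 46 sperm genes, called the sperm score here, was 6.90 to 9.09 in BW1940, 5.56 and 5.29 in LT186 replicates 2 and 4, and 9.02 to 9.22 in the other 4 LT186 arrays. LT186 replicates 2 and 4 were also the closest pair of arrays, with a median absolute log2 difference of 0.114, against 0.18 for the next pair. The labels call them separate biological replicates, and whether they share an RNA preparation or culture was not tested. Values without both are given below where a result rests on them. Markers of the vulva and uterus summed to 223 to 318 in BW1940 and 198 to 394 in LT186. Markers of adults or embryos also varied widely, with sums of 442.5 to 3848 in BW1940 and 459.6 to 3325 in LT186. Among them the collagen gene col-19 gave -13.4 to 721 in BW1940 and -30.7 to 858 in LT186. Whether the arrays differed in age was not tested. Of the genes altered in the strains, sma-6 averaged 102 ± 19.6 in BW1940 and 31.3 ± 2.79 in LT186 on its probe set of highest mean (log2 fold change 1.42, limma adjusted p = 0.000311), and dbl-1 averaged 79.4 ± 21.5 in BW1940 and 57.4 ± 14.1 in LT186 (0.40, limma adjusted p = 0.318; SD, n = 5 and 6). The other dbl-1 probe set, 193109_s_at, averaged 47.0 ± 16.2 in BW1940 and 22.1 ± 4.74 in LT186, 2.13 times as high in BW1940, with groups that overlapped (0.78, limma adjusted p = 0.117).

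The scaffold gene cnk-1 (R01H10.8, chromosome III, probe set 193125_at) gave intensities of 82.1, 89.2, 88.8, 82.2 and 57.9 in the BW1940 replicates. In the LT186 replicates it gave 12.2, 9.67, 7.59, 14.97, 3.24 and 12.2. The lowest BW1940 array lay above the highest LT186 array, and LT186 replicates 2 and 4, low in sperm transcripts, were not set apart from the other LT186 arrays. The means were 80.0 ± 12.8 in BW1940 and 9.98 ± 4.15 in LT186 (SD, n = 5 and 6). No fold is given on the linear scale, because the LT186 mean lies under the value of 10 used as a filter and detection calls were not used. On the log2(value + 10) scale, which understates the change of a gene this dim in 1 strain, the difference was 2.19 (SE 0.17, 95% interval 1.81 to 2.57), and it was 2.22 with the sperm score in the fit and 2.28 without LT186 replicates 2 and 4. As the pooled RNA is of whole animals, fewer cells with a transcript and less of it per cell cannot be told apart. Of all probe sets tested, 191 had a limma adjusted p under 0.05 (1.02%), 129 of them higher in BW1940 (0.686%); cnk-1 is the 1 member gene among these, which restates the difference known when the genes were chosen and is no test of it. Groups that did not overlap were seen for 1 of the 17 probe sets and for 4.41% of all.

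**Figure D1:**
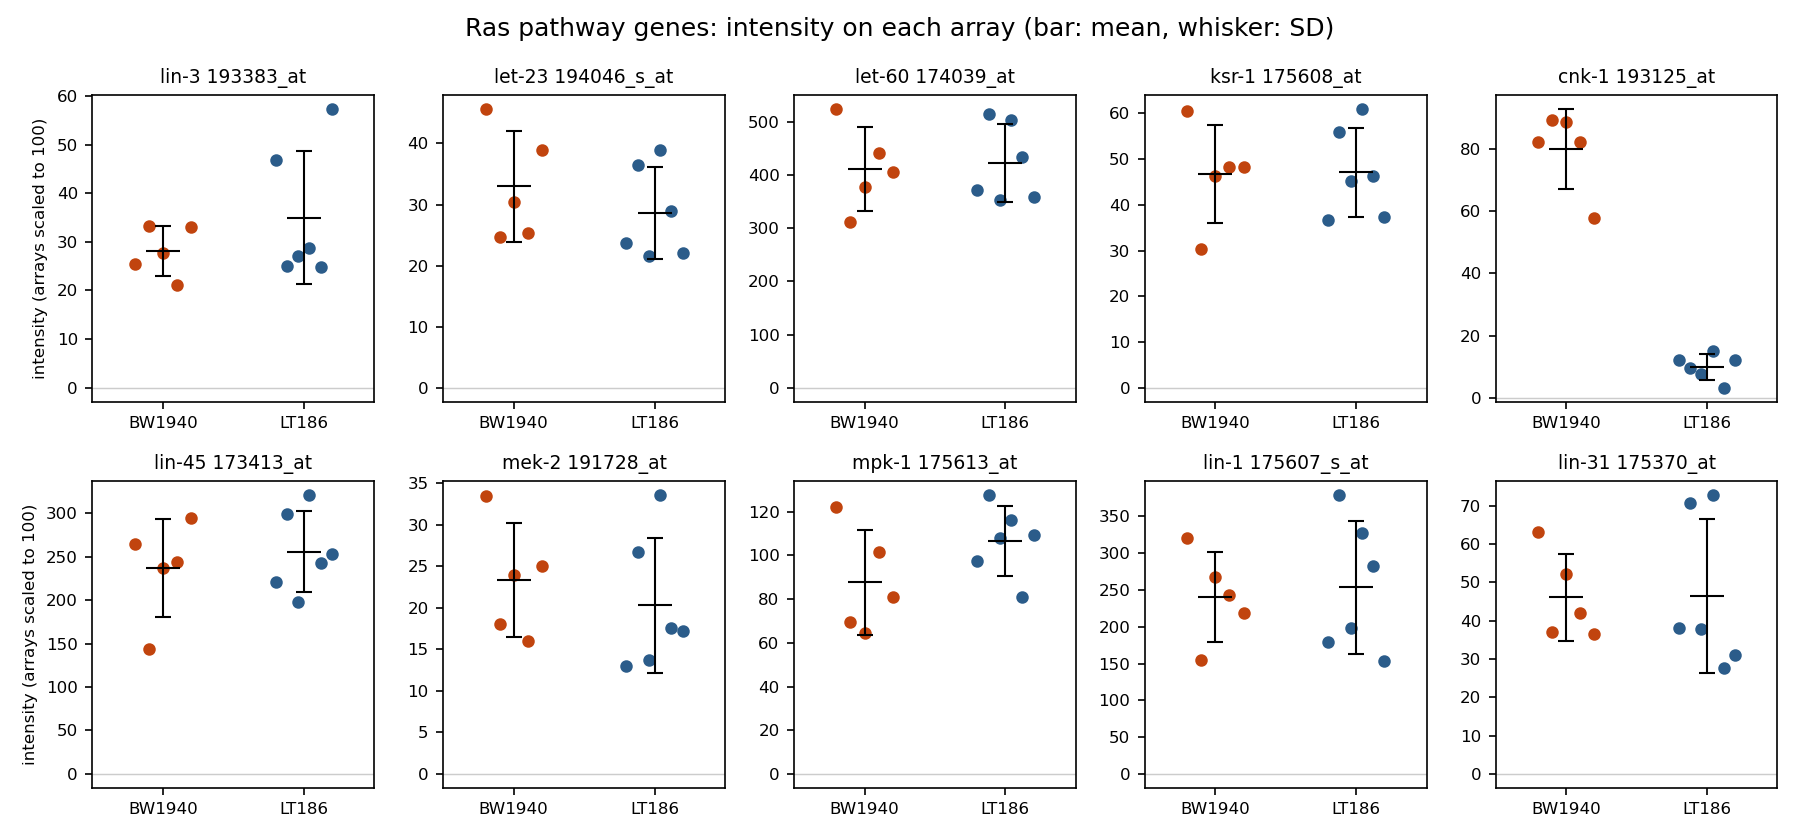
Intensity (arrays scaled to 100, linear axis) of the 10 genes on each array, with 5 BW1940 arrays on the left and 6 LT186 arrays on the right of each panel; each gene is shown by its probe set of highest mean, and bars and whiskers are mean and SD. The strains stand apart for cnk-1, at 57.9 to 89.2 in BW1940 and 3.24 to 14.97 in LT186, and overlap for the other 9 genes.

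The ligand gene lin-3 (F36H1.4), which the anchor cell of the gonad expresses to induce the vulva, had 25.5, 33.2, 27.7, 21.1 and 33.1 in BW1940, against a lowest, median and highest value of 24.8, 28.0 and 57.3 in LT186. The higher mean of LT186 came from replicates 1 and 6, at 46.8 and 57.3, while its other 4 arrays lay within the BW1940 range. The difference was -0.20 (SE 0.19, 95% interval -0.63 to 0.23). The receptor gene let-23 (ZK1067.1) had 45.7, 24.7, 30.5, 25.3 and 39.0 in BW1940, against a lowest, median and highest value of 21.6, 26.35 and 38.9 in LT186, a difference of 0.15 (SE 0.17, 95% interval -0.23 to 0.53). The groups overlapped over most of their range.

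The Ras gene let-60 (ZK792.6) had 2 probe sets. On 174039_at the BW1940 arrays had 524, 312, 377, 440 and 405, and the LT186 arrays had a lowest, median and highest value of 353, 403 and 515. The difference was -0.04 (SE 0.16, 95% interval -0.39 to 0.31). On 192311_at the means were 184 ± 24.9 in BW1940 and 160 ± 36.4 in LT186, a difference of 0.21 (SE 0.17). The 2 probe sets did not move together over the 11 arrays (Pearson r = -0.211, Spearman rho = -0.264), so that they do not give a single profile for let-60.

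Of the scaffolds, KSR-1 is the Raf-related partner that binds the kinases of the module. Its gene (F13B9.5) gave 60.4, 30.3, 46.4, 48.3 and 48.3 in BW1940 on 175608_at, against a lowest, median and highest value of 36.8, 45.7 and 61.0 in LT186, and the difference was -0.01 (SE 0.16, 95% interval -0.37 to 0.35). On 188070_s_at the difference was 0.11 (SE 0.19). The 2 probe sets of ksr-1 moved together (r = 0.81, rho = 0.818). In this contrast the strains overlapped for the scaffold gene ksr-1 and did not for cnk-1.

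The 3 kinase genes were within their replicate spread. The Raf gene lin-45 (Y73B6A.5) averaged 237 ± 56.4 in BW1940 and 255 ± 46.7 in LT186 on 173413_at (-0.12, SE 0.19), and 123 ± 41.7 in BW1940 and 106 ± 38.6 in LT186 on 191672_s_at (0.21, SE 0.25). The signs differed, and the probe sets did not move together (r = -0.456, rho = -0.255). The MAPK kinase gene mek-2 (Y54E10BL.6) averaged 23.3 ± 6.83 in BW1940 and 20.3 ± 8.13 in LT186 on 191728_at (0.15, SE 0.20); its other probe set, 188244_s_at, lay near 0, at -1.34 to 18.0 in BW1940 and -3.83 to 16.8 in LT186. The MAP kinase gene mpk-1 (F43C1.2) gave 122, 69.6, 64.5, 102 and 81.0 in BW1940 on 175613_at, against a lowest, median and highest value of 81.0, 109 and 128 in LT186. Its difference, -0.28 (SE 0.17, 95% interval -0.65 to 0.10), was the most negative among the members, and the other probe set, 193948_s_at, gave 0.05 (SE 0.24).

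Of the nuclear effectors, the ETS gene lin-1 (C37F5.1), which represses vulval fates until MPK-1 acts on it, averaged 241 ± 61.1 in BW1940 and 253 ± 90.0 in LT186 on 175607_s_at (-0.04, SE 0.25), and 130 ± 18.5 in BW1940 and 108 ± 33.0 in LT186 on 173446_s_at (0.27, SE 0.19). A further probe set, 175929_s_at, is annotated to both elk-2 and lin-1 and averaged 34.8 ± 23.2 in BW1940 and 26.2 ± 20.5 in LT186; it was left out of the counts because its signal could belong to either gene. The forkhead gene lin-31 (K10G6.1) averaged 46.1 ± 11.4 in BW1940 and 46.3 ± 20.1 in LT186 on 175370_at (0.04, SE 0.24). On 188600_at it gave 26.3, 22.3, 17.6, 12.95 and 27.2 in BW1940, against a lowest, median and highest value of 10.3, 13.9 and 19.1 in LT186. BW1940 replicates 1, 2 and 5 lay above every LT186 array on that probe set, and the difference was 0.34 (SE 0.16, 95% interval -0.0025 to 0.69).

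Over the 16 probe sets of the 9 genes other than cnk-1, the differences ran from -0.28 to 0.34. Their median was 0.05, beside a median of 0.08 for all probe sets tested. Of the 16, 10 were above 0, against 11416 of all 18801 probe sets tested. The standard errors were 0.16 to 0.33.

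**Figure D2:**
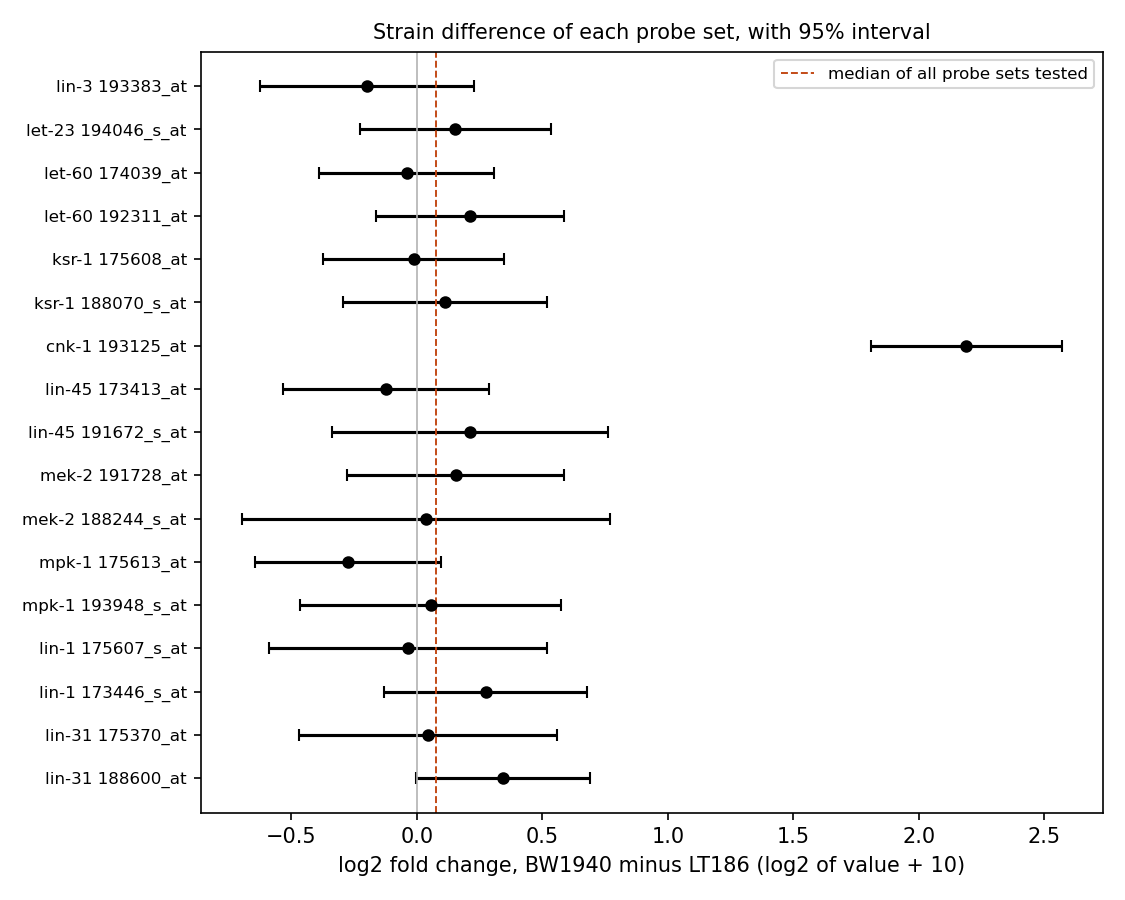
Strain difference of the 17 probe sets on the log2(value + 10) scale, BW1940 minus LT186, as points with 95% intervals from limma; the dashed line is the median of all probe sets tested, 0.08. The interval of cnk-1 runs from 1.81 to 2.57, and the other 16 points lie between -0.28 and 0.34. The intervals describe precision and are no test, because the genes were chosen with the cnk-1 difference known.

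Several members varied among the arrays of 1 strain. LT186 replicates 2 and 4 lay above the other 4 LT186 arrays on 11 of the 17 probe sets, none of them that of cnk-1, against 29.5% of all probe sets tested. LT186 replicate 5 was the lowest LT186 array on 9 of 17, cnk-1 included, against 18.2% of all. In a limma fit of strain and sperm score, 7 of the 17 probe sets had a slope on the score with an adjusted p under 0.05, each of them negative, while of all probe sets tested 29.4% had such a slope and 14.9% a negative one. Negative slopes were also called for 4 of 9 neuron, 3 of 8 muscle, 4 of 7 vulva and uterus, 2 of 8 intestine and 3 of 10 hypodermis markers. Positive ones were called for 7 of 14 germ line and oocyte, 4 of 10 hypodermis, 2 of 8 adult or embryo and 1 of 7 vulva and uterus markers. The slope on the score was not used to choose the genes, but the sperm score itself was chosen with earlier results of these data known. The lowest adjusted p was that of lin-31 175370_at, which fell by 0.25 log2 units per unit of score (SE 0.03, adjusted p = 0.000220). On that probe set LT186 replicates 2 and 4 had 70.8 and 72.7 and the other LT186 arrays had 27.6 to 38.03, and among BW1940 arrays the pair with the lowest scores, replicates 1 and 3, had 63.1 and 52.1 and the others 36.5 to 41.9. The other lin-31 probe set, 188600_at, had a slope of -0.06 (SE 0.05, limma adjusted p = 0.408). The lin-31 probe sets were only weakly alike over the 11 arrays (r = 0.259, rho = 0.173). The slope was -0.19 for mek-2 191728_at (SE 0.04, limma adjusted p = 0.00513), -0.18 for lin-1 173446_s_at (SE 0.04, limma adjusted p = 0.00551), -0.17 for ksr-1 188070_s_at (SE 0.04, limma adjusted p = 0.00789) and -0.14 for let-23 (SE 0.04, limma adjusted p = 0.0329). The second probe sets of mek-2 and lin-1 were also called, so these genes each count 2 times among the 7. That of mek-2, 188244_s_at, lay near 0, at -1.34 to 18.0 in BW1940 and -3.83 to 16.8 in LT186. With a filter of at least 20 on 6 arrays 5 were called, none of them of mek-2. For cnk-1 the slope was -0.08 (SE 0.06, limma adjusted p = 0.317).

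These slopes rest on the LT186 arrays that are low in sperm transcripts. Without LT186 replicates 2 and 4, 15 of 17 slopes were still negative, as with all arrays, and ran from -0.44 to 0.05, but 0 of 17 were called, while 1015 of all probe sets were. With these 2 arrays averaged as 1 sample 4 were called. Without LT186 replicate 4 alone 2 were called, ksr-1 188070_s_at and lin-31 175370_at. Sperm markers, which make up the score, summed to 12740 to 46870 in BW1940 and 2313 to 52730 in LT186. Germ line and oocyte markers summed to 2494 to 3650 in BW1940 and 2893 to 5524 in LT186, and their part in the slopes was not tested.

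**Figure D3:**
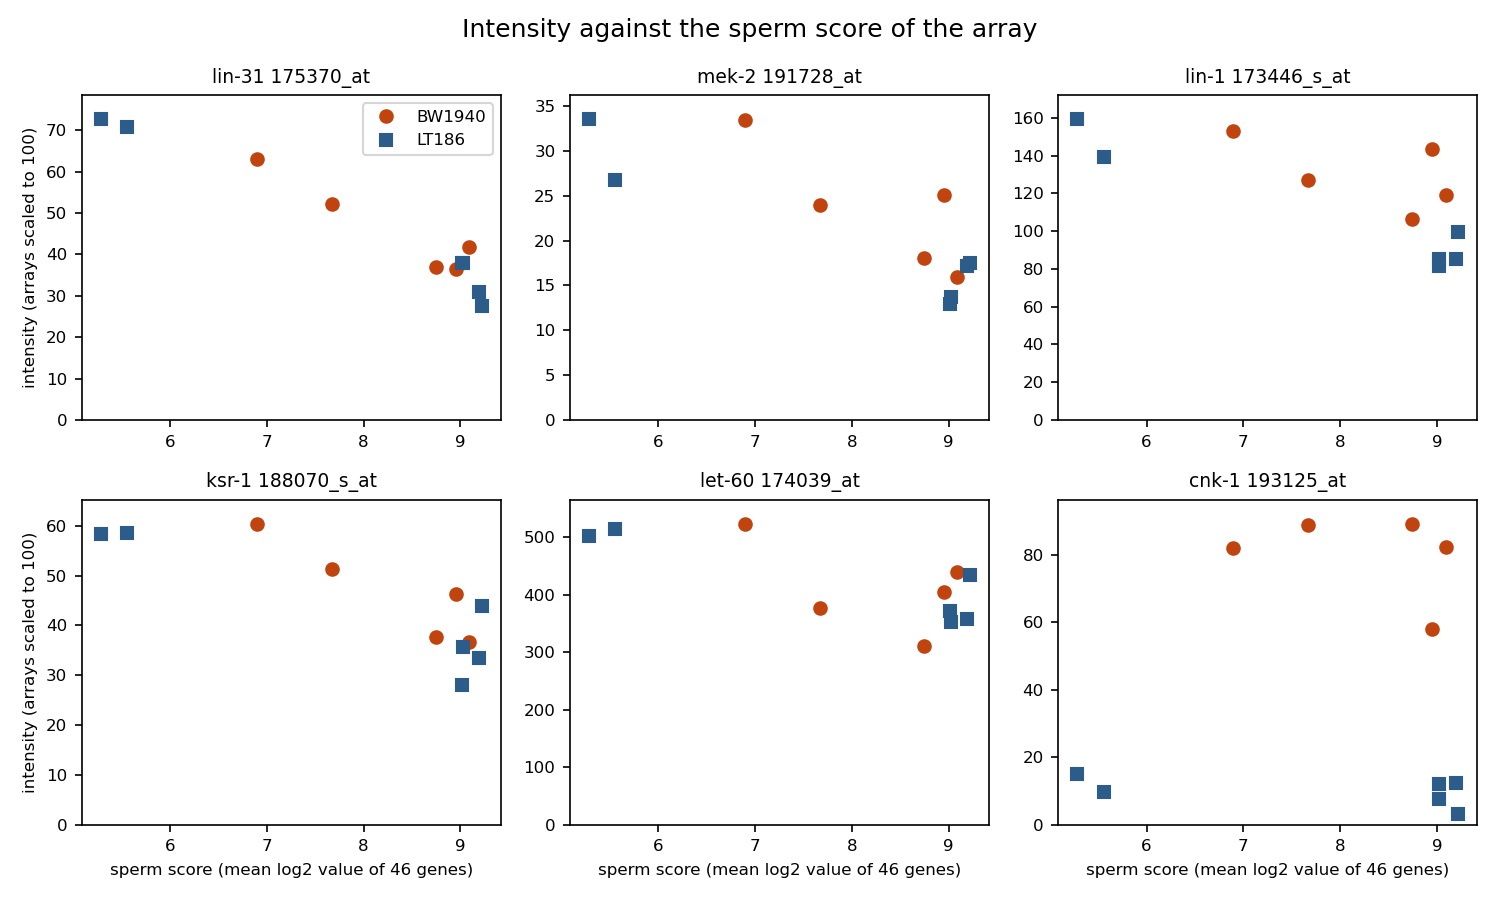
Intensity (arrays scaled to 100) of 6 probe sets against the sperm score of the array (mean log2 value of 46 sperm genes), with BW1940 as circles and LT186 as squares. Each gene is shown by its probe set of lowest adjusted p for the slope. The probe sets not shown of lin-31 (188600_at), ksr-1 (175608_at) and let-60 (192311_at) had limma adjusted p of 0.408, 0.0652 and 0.389. lin-31, mek-2, lin-1 and ksr-1 are highest on the BW1940 array of lowest score and on the 2 LT186 arrays of low score within each strain, and cnk-1 separates by strain at every score.

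With each gene at its probe set of highest mean and its values centred within strain, the 28 pairs among the 8 genes other than cnk-1 and lin-3 had Pearson correlations of 0.404 to 0.926 over the 11 arrays, and 0.151 to 0.885 over the 9 arrays left without LT186 replicates 2 and 4. The highest was that of let-23 and mek-2 (rho = 0.855; without the pair r = 0.885, rho = 0.783). The ligand gene lin-3 went the other way in its 8 pairs with these genes, at -0.749 to -0.207, and at -0.70 to 0.0523 without the pair. cnk-1 had -0.10 to 0.512 in its 9 pairs, 4 of them above 0. Without the pair it had -0.50 to 0.555, 3 of them above 0: the highest was with lin-3 (r = 0.555, rho = 0.817), and the values with ksr-1 (r = -0.444, rho = -0.817) and lin-1 (r = -0.496, rho = -0.667) were below 0. The points share arrays, scaling and whole-animal RNA, so these are descriptions of the arrays and no p is given.

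The genes most like cnk-1 over the 11 arrays, among 9692 probe sets with a mean of at least 50, were sur-5 (r = 0.982 on 193111_s_at), sma-6 (0.978), the mitochondrial gene ND5 (0.958), lfe-2 (0.953), which encodes an inositol trisphosphate 3-kinase that acts below LET-23 in ovulation, and mbug-1 (0.952). Each had groups that did not overlap, so this likeness contains the split by strain. With values centred within strain the closest were hpo-34 (0.960), itr-1, the inositol trisphosphate receptor gene (0.955), gei-4 (0.949), alg-1 (0.942) and skn-1 (0.938). Replicate 5 of each strain was the lowest array of its strain on these 5 probe sets, that of skn-1 being 188421_at, as for cnk-1. Without LT186 replicate 5 their correlations were 0.923 to 0.964 over 10 arrays, and without both 0.912 to 0.971 over 9. The skn-1 probe set of highest mean, 174799_at, differed. There BW1940 replicate 5 was the highest BW1940 array (395), and LT186 replicate 5 had 295, above a lowest LT186 value of 202. Among the members the closest within strain were mpk-1 193948_s_at (0.897) and let-60 192311_at (0.891), and the other probe sets of these 2 genes gave 0.272 and -0.0283. LT186 replicate 5, the lowest array for cnk-1, was also the lowest LT186 array for both, and without it the correlations were 0.779 and 0.756 over 10 arrays.

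The gene sur-5, which was identified as a suppressor of activated let-60 Ras, is also the marker on the plasmid in the BW1940 transgene. On 193111_s_at it gave 619, 515, 622, 527 and 378 in BW1940, against 196, 192, 168, 228, 158 and 166 in LT186. These groups did not overlap, with means of 532 ± 99.7 in BW1940 and 184.7 ± 26.04 in LT186 (log2 fold change 1.47, SE 0.15, limma adjusted p = 0.000935). On 173865_at, its probe set of highest mean, it averaged 464 ± 88.6 in BW1940 and 423 ± 105 in LT186 (0.15, SE 0.19, limma adjusted p = 0.796). Where the probes lie relative to the part of sur-5 on the plasmid could not be read from the files, labels or methods, so transcripts of the transgene and of the gene itself cannot be told apart.

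The difference of cnk-1 was not shared by the genes beside it. The 5 named genes of the array on either side along chromosome III, in the order of the RefSeq table, were cor-1, R01H10.4, rip-1, bbs-5 and inpp-4B on one side and K10G9.2, vglu-2, vglu-3, T07A5.1 and unc-50 on the other. Of these, rip-1 was below the filter, and the other 9 had log2 fold changes of -0.14 (vglu-3, SE 0.30) to 0.34 (unc-50, SE 0.24) with a median of 0.04. Those next to cnk-1, inpp-4B and K10G9.2, gave 0.25 (SE 0.17) and 0.28 (SE 0.21). None of the 9 was called by limma, none had an unadjusted p under 0.05, and none was called by an ordinary equal-variance test.

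**Figure D4:**
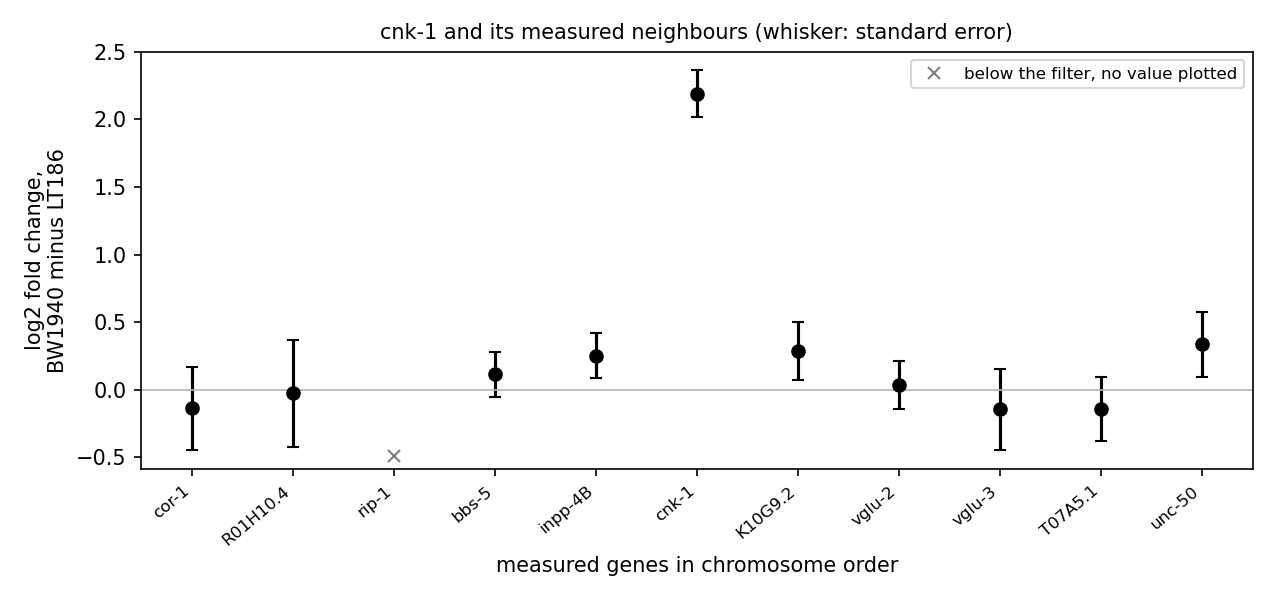
Log2 fold change, BW1940 minus LT186, of cnk-1 and the 5 named genes of the array on either side along the chromosome, as points with the standard error; a cross marks rip-1, which was below the filter. cnk-1 lies at 2.19, and the 9 measured neighbours lie between -0.14 and 0.34.

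The pathway around the members was examined through 82 further genes of Ras, FGF and MAP kinase signaling in 8 lists, each gene by its probe set of highest mean; 77 were on the array and 74 passed the filter. In the fit over all probe sets 1 of the 74 was higher in BW1940, eps-8, and 0 were lower; 7 higher and 3 lower genes had an unadjusted p under 0.05, against 11.7% and 5.03% of all probe sets, and an ordinary equal-variance test per probe set with the same adjustment called 2, eps-8 and cgr-1. The median difference of the 74 was 0.01, beside 0.08 for all probe sets tested, and the groups did not overlap for 5, eps-8, cgr-1, kgb-1, ftt-2 and sur-7, against 4.41% of all probe sets.

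eps-8 encodes a homolog of a mammalian EGF receptor substrate that binds actin and is found in the microvilli of the worm intestine. It had 421, 388, 437, 373 and 306 in BW1940, against a lowest and highest value of 181 and 280 in LT186. All 5 BW1940 arrays were above all 6 LT186 arrays, with means of 385 ± 50.7 in BW1940 and 231 ± 34.6 in LT186 (log2 fold change 0.71, SE 0.14, limma adjusted p = 0.0328; two-sided exact permutation p = 0.00216, the smallest that the 462 splits of the arrays can give). The permutation p restates that the groups did not overlap, as for 4.41% of all probe sets, and is no separate support for the call. The call was lost when arrays were put on a common distribution (0.62 after quantile normalization, 0.66 after median centring) and when any of 9 of the 11 arrays was left out singly, that is BW1940 replicates 1, 2, 3 and 4 (0.67 to 0.72) and LT186 replicates 1, 2, 3, 5 and 6 (0.65 to 0.73). Without LT186 replicates 2 and 4 together eps-8 was called at 0.80. These values are of 193793_s_at, its probe set of highest mean, and its other probe sets were not called: 193765_at gave 0.85 (SE 0.18, limma adjusted p = 0.0503), 174712_at averaged 254 ± 60.8 in BW1940 and 223 ± 53.9 in LT186 with groups that overlapped (0.18, SE 0.19, limma adjusted p = 0.72), and 193808_s_at was below the filter. All 8 intestine markers on the array also lay above 0 (median 0.54, sums of 6826 to 8067 in BW1940 and 4319 to 6080 in LT186), against 11416 of all 18801 probe sets tested. Of the 8, 0 were called by limma, 6 had an unadjusted p under 0.05 and 3 were called by the equal-variance test. Their part in the eps-8 value was not tested.

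In the same list, of genes that place or process ligand and receptor, 8 of 8 were tested, 1 was called and the median was 0.25. lin-10 and lin-2, whose proteins form with LIN-7 the complex that holds LET-23 at the basolateral membrane, had 0.51 (SE 0.15, limma adjusted p = 0.126) and 0.32 (SE 0.13, limma adjusted p = 0.247). Of the adaptors and exchange factors, 5 of 8 were tested and 0 were called or had an unadjusted p under 0.05, with sem-5, the Grb2 gene, at 0.25 (SE 0.20) and sos-1, the exchange factor gene, at 0.20 (SE 0.145). Among 11 tested scaffold and phosphatase genes 0 were called by limma and 3 had an unadjusted p under 0.05. These were cgr-1, a positive modulator of Ras signaling in vulval induction (216, 357, 260, 304 and 255 in BW1940 and 159 to 193 in LT186; 0.58, SE 0.13, limma adjusted p = 0.0675), the 14-3-3 gene ftt-2 (0.39, SE 0.12, limma adjusted p = 0.159) and sur-7 (0.62, SE 0.26, limma adjusted p = 0.255).

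Among 11 tested negative regulators 3 lay above 0, against 11416 of all 18801 probe sets tested, and the median was -0.17. Of the 11, 0 were called and 2 had an unadjusted p under 0.05. These were gla-3, which restrains MPK-1 in the germ line (-0.58, SE 0.23, limma adjusted p = 0.236), and lst-4 (-0.36, SE 0.14, limma adjusted p = 0.229). The phosphatase gene lip-1, an MPK-1 antagonist, had -0.22 (SE 0.22). It lay near the filter value, at 3.32 to 10.05 in BW1940 and 4.54 to 9.24 in LT186 apart from replicate 3, at 27.2. Of 14 nuclear factors and targets 0 were called and 1 had an unadjusted p under 0.05, the Mediator gene sur-2 (-0.94, SE 0.32, limma adjusted p = 0.177), with 1 of its 5 BW1940 arrays at 30.5 and the others at -0.788 to 5.36. The Ras-family GTPases (9 tested, median -0.03) and the FGF branch (2 tested, let-756 0.14, SE 0.29, and egl-15 -0.03, SE 0.28) had 0 called and 0 at an unadjusted p under 0.05; ras-2 gave -0.998 with an SE of 0.89. Of 14 other MAP kinase genes 0 were called and 1 had an unadjusted p under 0.05, the JNK-like kgb-1 (0.60, SE 0.18, limma adjusted p = 0.133). With the sperm score in the fit, 4 of the 74 were called, eps-8, cgr-1 and ftt-2 higher and gla-3 lower in BW1940, against 8.17% of all probe sets.

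**Figure D5:**
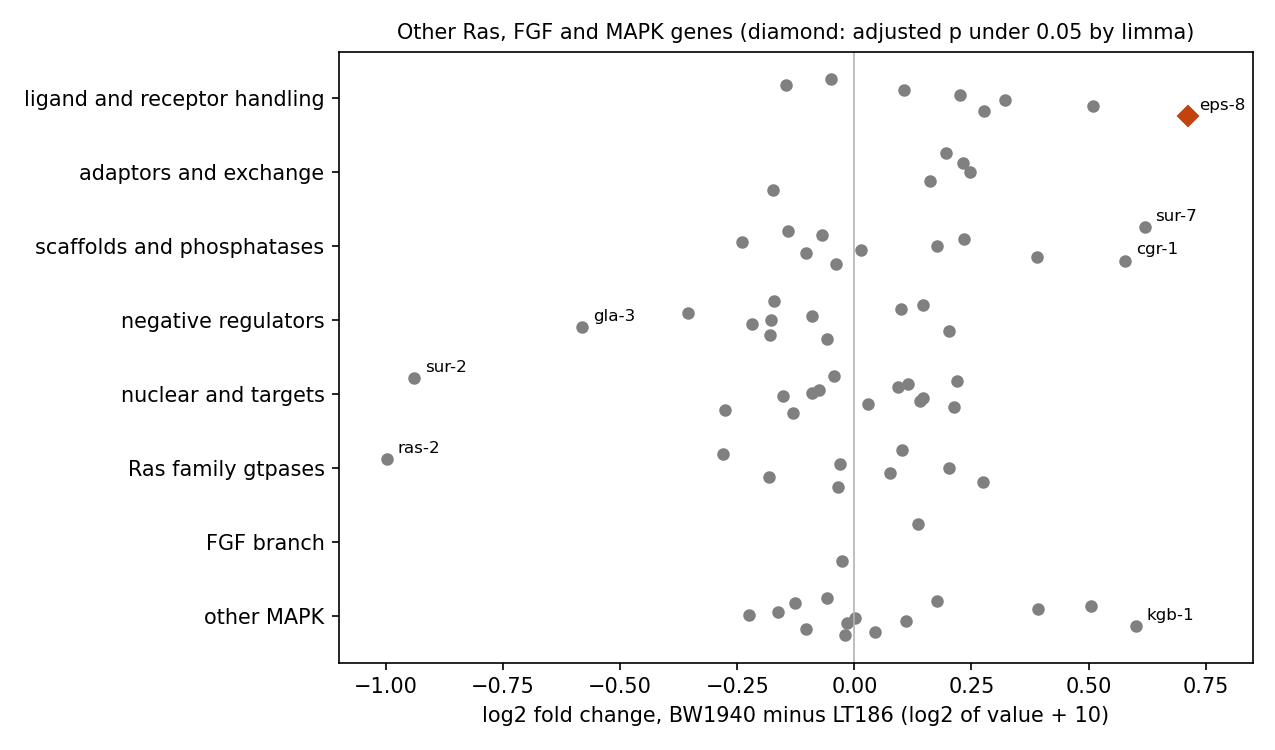
Log2 fold change, BW1940 minus LT186, of the 74 other pathway genes that passed the filter, 1 point per gene, by list; the diamond has a limma adjusted p under 0.05. eps-8 lies at 0.71, and the other 73 genes are not called.

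On the sperm score 25 of the 74 had a called slope, 23 negative and 2 positive, against 29.4% of all probe sets, 14.9% negative and 14.5% positive. The Notch receptor gene lin-12, which acts in the lateral signal between vulval precursors, had a slope of -0.24 (limma adjusted p = 0.00129), and among the other MAP kinase genes 7 of 14 were called, each negative. The positive slopes were those of egl-17, which encodes an FGF expressed in vulval cells (0.34, limma adjusted p = 0.00153), and gla-3 (0.19, limma adjusted p = 0.0327). egl-17 gave 6.73, 37.6, 27.6, 39.7 and 32.8 in BW1940, and 11.8 and 11.8 in LT186 replicates 2 and 4 against 29.1 to 43.5 in the other LT186 arrays. It was low on BW1940 replicate 1 and LT186 replicates 2 and 4, on which lin-31 175370_at was high. Without LT186 replicates 2 and 4, 55 of the 74 slopes were negative and 1 was called, that of egl-17 (0.62).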

How the data were processed

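Per the methods, the authors made image data with MAS5 (version 5, in the submitters' processing notes), turned them into intensity values per probe set with Probe Profiler and scaled each array to 100; these intensities are the deposited values. Detection calls were not used here. Negative values were set to 0, and the log2 of each value plus 10 was used. The test, limma 3.58.1 in R 4.3.3, took every probe set that reached 10 on 2 or more of the 11 arrays (strain as the factor, no further normalization, Benjamini-Hochberg over 18801 probe sets, threshold 0.05). The fit was tested on simulated data with noise drawn independently for each probe set and array. Such data lack the variation that probe sets share on these arrays. Figures used matplotlib 3.10.9. The number of arrays limits the precision. An ordinary equal-variance test per probe set with the same adjustment was an alternative (the authors used a modified test of Probe Profiler at unadjusted thresholds, not rerun here), with other offsets, filters, scalings, array weights, a sperm score covariate, a replicate block and left-out arrays. Of 22548 probe sets, the annotation gave 20766 a single symbol, 887 several and 895 none; names were matched to the RefSeq table of WBcel235, which also gave neighbours, and no coordinates are printed because the files name no build. Named were all members, called genes and up to 3 others by size per list, the 5 genes most like cnk-1 by each measure, its neighbours and the genes the strains alter. Members, lists and the sperm score were chosen with earlier results of these data known.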

Additional observations from a re-analysis of the deposited data

Results flagged for a closer look

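Of 70 groups of arrays examined, 3 held an array far from the rest by Dixon's criterion, which chance meets in about 1 group of 20. For cnk-1, BW1940 replicate 5 had an intensity of 57.9 and the other 4 BW1940 arrays 82.1 to 89.2, still above every LT186 array; without it the log2 fold change was 2.29. For sur-2, BW1940 replicate 2 had 30.5 and the other 4 BW1940 arrays -0.788 to 5.36; without it sur-2 was the 1 other pathway gene called. For pmk-1, a p38 MAP kinase gene, LT186 replicate 4 had 145.9 and the other 5 LT186 arrays 20.9 to 54.5, beside means of 69.3 ± 13.5 in BW1940 and 54.9 ± 46.5 in LT186.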

How the results depend on the processing

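The log2 fold change of cnk-1 was 1.41 (offset 32) to 2.98 (offset 1) over 21 alternatives that gave it a value, and cnk-1 was the 1 member gene counted as called in each, on the values known when the genes were chosen; a filter of at least 20 on 6 arrays left 0, because 5 arrays reach that value for cnk-1. Of other pathway genes, 2 were called with offset 32, without a filter, with array weights or by the equal-variance test (eps-8 and cgr-1 each time), 2 with every probe set counted (eps-8 and sur-5), 4 with the sperm score and 0 with quantile normalization, median centring or the replicate block; eps-8 was called in 11 of 23 alternatives (0.62 to 0.80). Leaving out each array gave 1 to 1 member gene, 0 to 1 other pathway genes, 77 to 151 probe sets (main 191) and 2 to 9 member slopes (main 7). Probe sets called were 305 with offset 32, 416 without a filter, 443 with array weights, 1536 with the sperm score, 381 by the equal-variance test and 5 with the replicate block; with BW1940 replicate 1, 2, 3 or 4 or LT186 replicate 1, 2, 3 or 6 left out singly the count was 77 to 125. At an unadjusted p under 0.001 the equal-variance test called 381 probe sets as well. The split of higher against lower in BW1940 was 129 to 62, and 86 to 90 after quantile normalization, 71 to 77 after median centring and 731 to 805 with the sperm score; quantile normalization moved the median difference of all probe sets to 0.0026. Member slopes called were 11 with array weights, 0 without LT186 replicates 2 and 4 and, chosen after seeing the data, 4 with these 2 averaged. Same-numbered arrays did not deviate together (r of -0.688 to 0.105), so no pairing by number was seen in the values. As arrays also differ in sperm transcripts, these r cannot exclude that same-numbered samples were handled together. The replicate block left 5 probe sets called, cnk-1 among them at 2.22, and 5 member slopes, and it uses no information from LT186 replicate 6. Of the single-gene values under the alternatives, 816 stayed on their side of the threshold, 37 lost a call, 18 gained one and 6 uncalled values moved by more than the replicate spread. The cause of these shifts was not tested.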
